A study of Homo sapiens with 18 samples.

Results

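The genes described here are the 77 human protein-coding genes of the mitochondrial ribosome whose symbols are MRPL or MRPS followed by a number, taken from 20046 placed protein-coding genes of RefSeq GRCh38.p14. The symbols assign 49 of them to the large subunit (MRPL) and 28 to the small subunit (MRPS). The series mapped RNA crosslinked to FLAG-tagged MYC by eCLIP, in which ultraviolet light joins protein to RNA in living cells before immunoprecipitation and sequencing. All cells were U2OS, a human osteosarcoma line whose own MYC had been knocked out and which carried a doxycycline-inducible MYC transgene, with the allele 3A, 7A or wild type (WT). The labels do not say which residues 3A and 7A change, nor whether a line is a single clone. For each allele, cells given doxycycline (1 µg/mL) for 24 h and cells given PBS were profiled, each with 2 immunoprecipitates and 1 input, which makes 18 libraries in 12 groups. The files used here are 3 peak lists, 1 per allele, for cells with doxycycline, and lists of cells without it were not analysed here. With 1 list per allele no value has a replicate error and no test between alleles was made. The depth behind the lists is unknown. The lists also hold no expression values, so the cell line could not be checked by its markers. Of 8 marker genes listed for the line, SPARC had a 7A peak and VIM a wild-type peak, and of 4 epithelial and 4 blood markers none had a peak in any list.

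Mitochondrial ribosomes make the few proteins encoded in mitochondrial DNA, all of them parts of the respiratory chain and ATP synthase. Their RNAs come from the mitochondrial genome, while every ribosomal protein is encoded in the nucleus, translated in the cytosol and imported. Some of these proteins descend from bacterial ribosomal proteins and others were added in mitochondria. The transcription factor MYC binds DNA with its partner MAX and is known for raising ribosome and mitochondrial biogenesis.

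Wild-type MYC had peaks in a minority of these genes, and neither mutant had any. A gene was counted where a peak overlapped its span by at least 1 bp. No 3A peak and no 7A peak overlapped any of the 77 genes, against 27 wild-type peaks in 22 genes (28.6%, 95% Wilson interval 19.7 to 39.5, which covers counting error over genes only). Over all protein-coding genes the share with a peak was 0.359% in the 3A list, 0.269% in the 7A list and 6.78% in the wild-type list. Among protein-coding genes no longer than the longest of the 77, the wild-type share was 7.2%. Expression was not measured in these files, and genes with abundant messages can exceed the average gene for that reason, which was not tested.

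The bases under several of these peaks can be read from the RefSeq start windows (GRCh38.p14), which run from 250 bases before to 50 bases after an annotated gene start. Shown first are bases 21 to 50 of the annotated transcript, 5′ to 3′ on the gene's strand in DNA letters. Bases under the wild-type peak are in capitals. The MRPL15 peak began 26 bp from the gene start, on the strand of the peak, but this gene had no start window and is not shown. Given are the 6 genes with a window whose peak covered at least 5 of these bases.
MRPL32, chr7:42932396-42932425, plus strand: gccatgctggtcttGGTGGTTTCGCCGTGG
MRPL58, chr17:75012690-75012719, plus strand: gcggccaccagGTGCCTGCGCTGGGGCCTG
MRPL4, chr19:10252234-10252263, plus strand: GCGTGGGAGGCTGCGCGGCGATGCTGCAGT
MRPL16, chr11:59810729-59810758, minus strand: gagccgattacagctaggtagtGGAGCGCC
MRPS5, chr2:95121759-95121788, minus strand: GCGACCGCGGTGCGCGCTGTGGGCTGCCTC
MRPS34, chr16:1773085-1773114, minus strand: gcggaagaaggtgcgTCCGCGGCTGATCGC
For MRPL4 and MRPS5 these windows belong to a second annotated start that lies inside the peak, and for the other 4 to the outer end of the gene. The start window of DNAJC9-AS1, an antisense non-coding RNA gene, also held the summit, the position of highest signal, of the MRPS16 peak, shown here with the summit base and 2 bases on each side in capitals.
MRPS16, chr10:73252511-73252540, minus strand: gtagagctggtgcGTGCGggtagcggggct

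Large-subunit genes held 14 of the 27 wild-type peaks, in 13 of 49 genes (26.5%, 95% Wilson interval 16.2 to 40.3). The highest was at MRPL32, whose protein is matured by the mitochondrial m-AAA protease in yeast and mouse. That peak reached 16.9 in fold enrichment, the ratio the authors deposited for each peak, and 28.3 in −log10 q. It lay on chromosome 7 from 42932410 to 42932526, in a gene that spans 42932376 to 42937857 on the plus strand, with the summit 86 bp from the gene start. A second MRPL32 peak, with a fold enrichment of 7.92, had its summit 312 bp from the gene's other end.

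The next large-subunit peaks were all at gene starts. MRPL37, a protein with no bacterial counterpart, had a fold enrichment of 14.8 on chromosome 1 from 54200251 to 54200446. MRPL15, of a family shared with bacteria, had 13.4 on chromosome 8 from 54135267 to 54135421. No strand was annotated for MRPL15, so its start was taken on the strand of the peak. MRPL58, a peptidyl-tRNA hydrolase related to release factors that became part of the large subunit, had 13.1 on chromosome 17 from 75012701 to 75012843. The summits of these 3 peaks lay 152, 91 and 95 bp from the gene start. All 3, like the first MRPL32 peak, were above the upper quartile of the wild-type list, 11.5.

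MRPL41, the shortest of the 77 genes at 677 bp, had a fold enrichment of 10.6 and MRPL4, whose bacterial counterpart reaches the peptide exit tunnel, had 10.4. MRPL16, whose bacterial counterpart lies near the peptidyl transferase centre, had 9.38. These 3 were above the wild-type list's median of 8.11. MRPL12, which forms the stalk that contacts translation factors, had 8.01, a value next to that median. Its peak lay at the far end of the gene, on chromosome 17 from 81707193 to 81707780, and 55.3% of the peak was inside the span, which ends at 81707517.

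The remaining large-subunit peaks were weaker than the list's median. MRPL52 had a fold enrichment of 6.22, MRPL38, a protein of the central protuberance, had 4.64, and MRPL24 had 3.78. MRPL14, which faces the small subunit and is bound by the assembly factor MALSU1, had 3.68. MRPL3, whose bacterial counterpart reaches towards the peptidyl transferase centre, had 2.56 with a −log10 q of 2.78, the lowest of the 27 peaks. The MRPL3 summit also lay inside LOC105374114, a shorter non-coding RNA gene on the opposite strand to the peak, and counting a peak only for the shortest gene that holds its summit left 21 of the 77 genes. The MRPL24 peak, on chromosome 1 from 156742278 to 156742454, also lay inside HDGF, a growth factor gene on the same strand that spans the peak. A further wild-type peak in HDGF lay 501 bp beyond the MRPL24 span, with a fold enrichment of 4.18. The start that the promoter table lists for MRPL24 lies further into the gene than the peak, with the summit at position -1224 from it, so the gene of origin of this peak is uncertain. Without the MRPL24 peak, 21 of the 77 genes had a peak.

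Small-subunit genes held 13 peaks in 9 of 28 genes (32.1%, 95% Wilson interval 17.9 to 50.7). MRPS16 led with 12.3 in fold enrichment and 35.5 in −log10 q, the highest −log10 q among the 27, on chromosome 10 from 73252450 to 73252573. MRPS25 had 11.8 and MRPS15 had 11.0, both at the gene start, with summits 116 and 112 bp into the gene. MRPS25 has no bacterial counterpart, while MRPS16 and MRPS15 belong to families shared with bacteria. All 3 stood above the median of the wild-type list.

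MRPS26 was the single gene of the 77 with 3 peaks. They had fold enrichments of 8.74, 9.91 and 11.5, with summits 86, 426 and 1809 bp from the start of a gene of 2199 bp. MRPS30 had 5.87 and 10.8, with summits at 160 and 491 bp. MRPS34 had 8.41 at 115 bp and 7.73 at 709 bp, in a gene of 1240 bp. These genes with several peaks, and MRPL32, were 4 of the 22.

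MRPS5, whose bacterial counterpart lies at the messenger entry site, had a fold enrichment of 9.21. Its summit lay 235 bp from the outer start of the gene and 40 bp from the second annotated start. MRPS12, a protein of the decoding centre, had 7.06 with the summit 1487 bp into a gene of 2225 bp. MRPS23 had 4.18 with the summit at 732 bp. The small-subunit values thus ran from 4.18 to 12.3 and the large-subunit values from 2.56 to 16.9, with medians of 9.21 and 8.69, and the ranges overlapped.

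**Figure D1:**
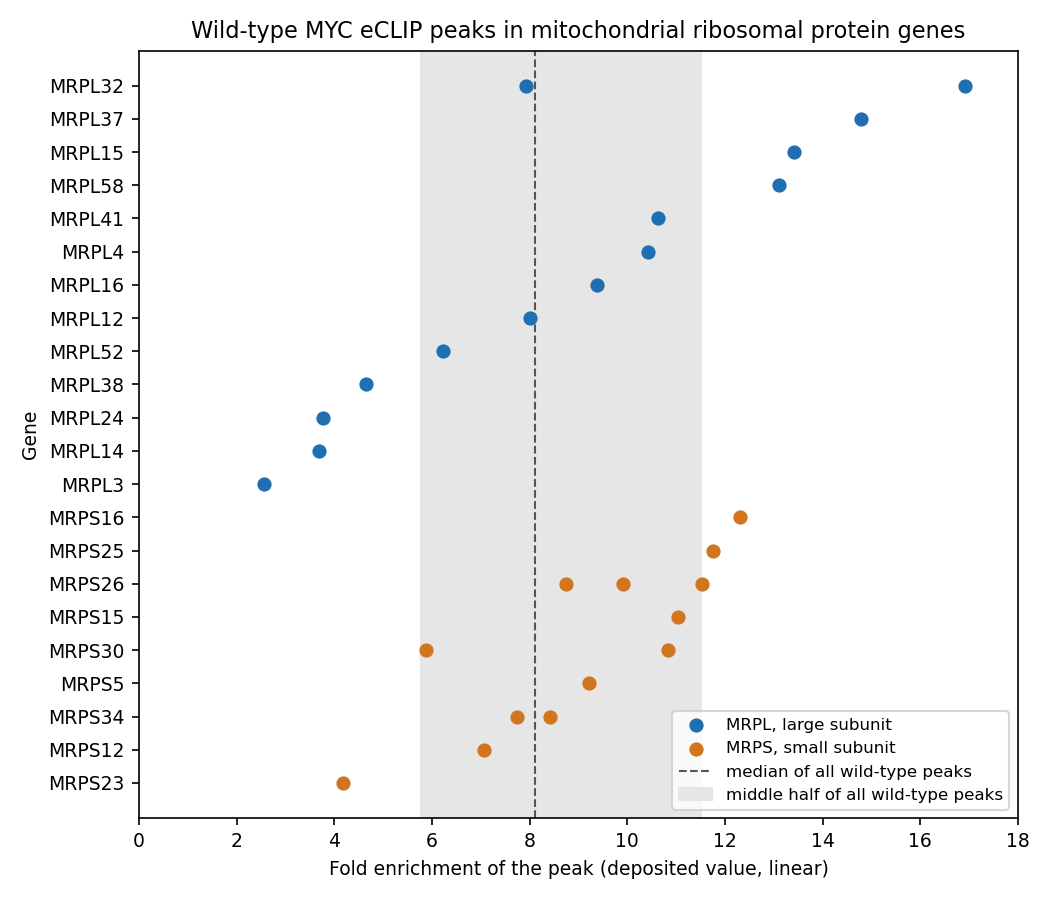
Fold enrichment (x axis, the deposited ratio) of each of the 27 wild-type peaks, by gene, with large-subunit genes in blue and small-subunit genes in orange. The dashed line is the median of all wild-type peaks (8.11) and the grey band runs from the lower to the upper quartile (5.78 to 11.5): 16 of the 27 points lie right of the line.

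Genes with a peak came from both subunits and from both old and newly added proteins. The shares of the subunits, 26.5% and 32.1%, had widely overlapping intervals. Structures of the human mitochondrial ribosome place MRPS30 and MRPS18A in the large subunit in spite of their symbols. With that assignment 14 of 51 large-subunit and 8 of 26 small-subunit genes had a peak. Among genes of protein families shared with bacteria 12 of 47 had a peak (25.5%), and among those for proteins added in mitochondria 10 of 30 did (33.3%). The 22 genes with a peak had a median span of 6404 bp, against 10986 bp for the 55 without, which ran from 699 bp (MRPL53) to 111543 bp (MRPS28).

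In strength these peaks were typical of the wild-type list. Their median fold enrichment of 9.21 stood at the 59.2 percentile of all 2149 wild-type peaks, and 7 of them were above the upper quartile and 5 below the lower. Their −log10 q, the authors' measure of confidence, had a median of 16.1 against 17.8 for the whole list. The peaks had a median width of 196 bp, against 165 bp for the whole list. All 26 peaks in genes with an annotated strand lay on the strand of the gene, against 94.5% of 1721 pairs of a peak and another protein-coding gene. Reads of similar copies can be placed at the wrong gene, and whether any of these peaks hold such reads was not tested. None of 106 annotated MRPL and MRPS pseudogenes had a peak in any list, while 52 of 1994 pseudogenes of cytosolic ribosomal proteins had a wild-type peak.

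Most of these peaks sat just inside the start of the gene. The summit was within 500 bp of the start for 20 of 27 peaks (74.1%, 95% Wilson interval 55.3 to 86.8), in 18 of the 22 genes. For wild-type peaks in all protein-coding genes the share was 42.7% of 2000 summits, and without the 77 genes 42.3% of 1973. The median distance was 235 bp in mitochondrial ribosomal protein genes, against 1222 bp in the other protein-coding genes. The median span was 6404 bp for the 22 genes, against 19537 bp for all protein-coding genes with a wild-type peak, so distances are set against longer genes. No test was made of this difference, since genes of a single list are not replicates. The share was 11 of 14 for large-subunit and 9 of 13 for small-subunit peaks. In MRPL41 the limit of 500 bp covers most of the 677 bp span. Its summit, counted as near the start, lay 43.2% into the gene.

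Measured from the outer end of the gene span, the peaks began inside the gene. Among the 20 summits near the start, the edge of the peak nearest to it lay 26 to 372 bp inside the gene, with a median of 70 bp, and none extended upstream of that end. The peaks of MRPL4 and MRPS5 did cover a second annotated start that lies inside the span. Counted over summits at any distance from the start, 0.811% of 1973 in other protein-coding genes belonged to peaks extending upstream of the outer end. None of the 27 here did. With starts taken as the nearest one in the promoter table, 19 of 27 summits were within 500 bp, because the MRPL24 summit then lay at position -1224. The 20 peaks near the start had a median fold enrichment of 10.2, against 7.73 for the 7 others. The ranges overlapped, from 2.56 for MRPL3 to 16.9 for MRPL32 near the start and from 3.68 to 11.5 elsewhere.

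**Figure D2:**
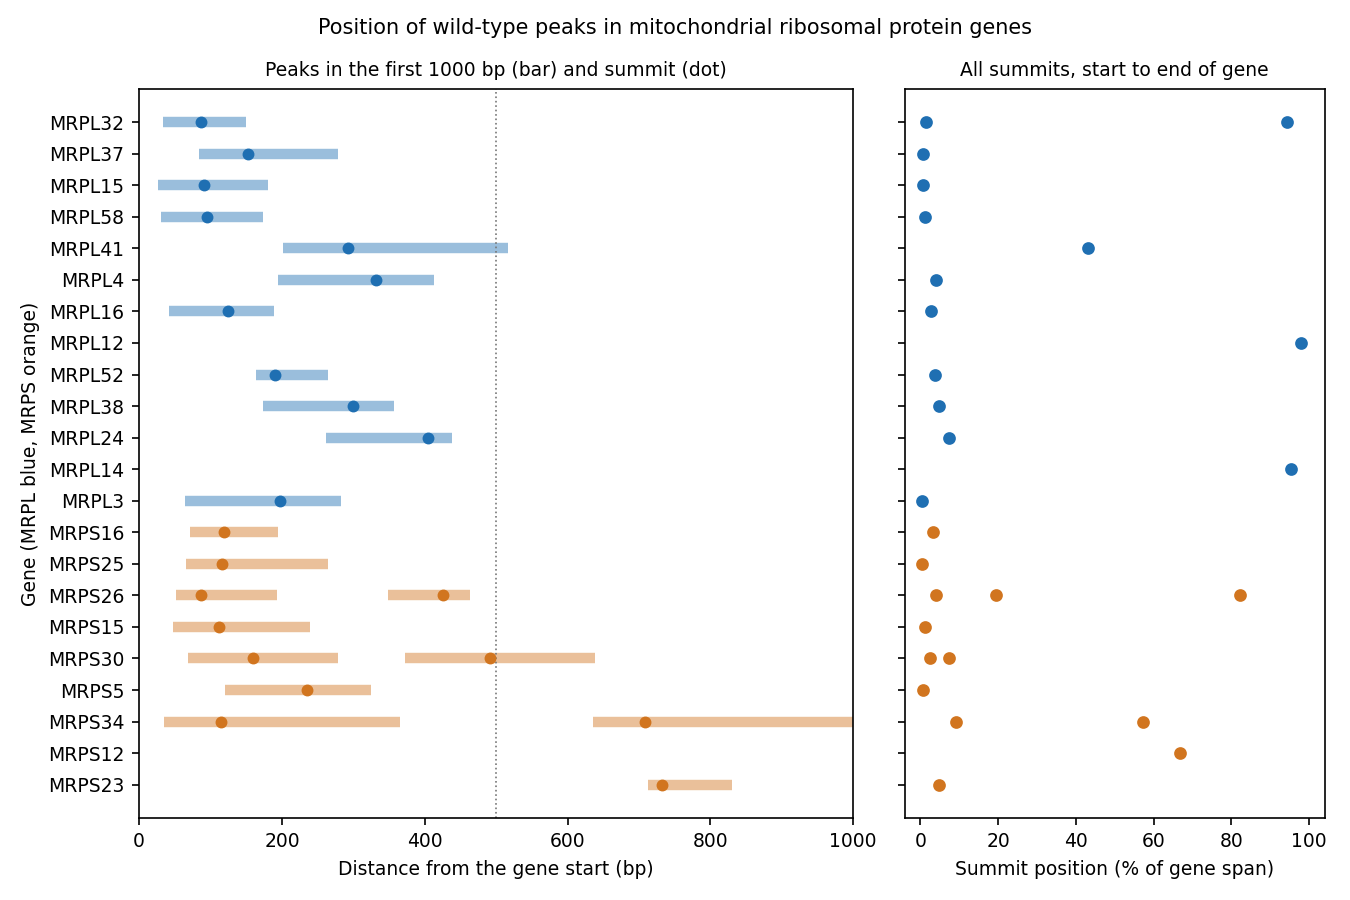
Left, the wild-type peaks (bars) and summits (dots) of each gene by distance from the gene start in bp, over the first 1000 bp, with a dotted line at 500 bp. Right, all 27 summits as a percentage of the gene span: most lie near 0, and those of MRPL12, MRPL14 and the second MRPL32 peak lie beyond 90.

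The peaks away from starts lay mostly towards the other end. In genes of at least 5 kb, divided into 5 equal parts, 15 of 17 summits were in the part that holds the start (88.2%), 2 were in the last part (11.8%) and none was between. The 2 at the end were the second peak of MRPL32 and the peak of MRPL14. Of 1632 summits in other protein-coding genes of that length, 52.8% lay in the first part and 20.8% in the last, the rest in the 3 middle parts. The other 5 summits beyond 500 bp were those of MRPL12, MRPS12, MRPS23, the outer MRPS26 peak and the second MRPS34 peak, of which all but MRPS23 lie in genes shorter than 5 kb.

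**Figure D3:**
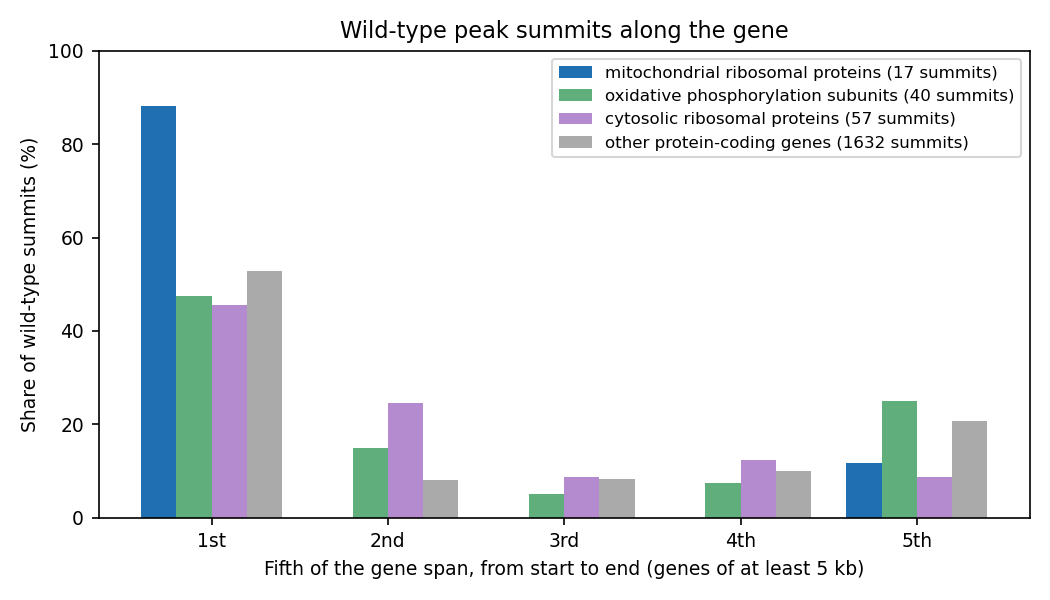
Share of wild-type summits (y axis, percent) in each of 5 equal parts of the gene span, for genes of at least 5 kb. Mitochondrial ribosomal protein genes (17 summits) have 88.2% in the first part, against 52.8% of 1632 summits in other protein-coding genes.

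The genes of oxidative phosphorylation, which need mitochondrial ribosomes for their partner subunits, and of the cytosolic ribosome are 2 large lists for comparison. A wild-type peak was present in 28.6% of the 77 mitochondrial ribosomal protein genes, against 38 of 89 nuclear oxidative phosphorylation genes (42.7%) and 56 of 79 cytosolic ribosomal protein genes (70.9%). The summit was within 500 bp of the start for 74.1% of peaks in the 77 genes, against 24 of 60 oxidative phosphorylation summits (interval 28.6% to 52.6%) and 31 of 109 cytosolic ribosomal summits (28.4%, interval 20.8 to 37.5). Both intervals lie below that of the mitochondrial ribosomal protein genes, but they count peaks singly, and several can lie in 1 gene. Counted by gene, a summit lay within 500 bp of the start in 18 of 22 genes here. The same held for 24 of 38 oxidative phosphorylation and 30 of 56 cytosolic ribosomal protein genes. No test was made. In smaller lists of mitochondrial translation, named next, the share was 6 of 9 summits for translation and messenger factors, 3 of 5 for ribosomal proteins with other symbols, 3 of 7 for assembly and RNA factors and 2 of 5 for synthetases. The median span was 8618 bp for the 77 genes, against 9242 bp for oxidative phosphorylation genes and 5015 bp for cytosolic ribosomal protein genes. The median of each gene's strongest fold enrichment was 9.90 here, 11.5 for oxidative phosphorylation and 9.80 for the cytosolic ribosome.

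Other genes of mitochondrial translation also held wild-type peaks. Of 5 mitochondrial ribosomal proteins with other symbols, 3 had a wild-type peak: GADD45GIP1 (14.02), CHCHD1 (11.1) and AURKAIP1 (9.21), while DAP3 and PTCD3 had none. Of 16 translation and messenger factors 5 had a peak, led by SLIRP (27.0), which binds mitochondrial messengers with LRPPRC, the elongation factor gene TUFM (19.5), TSFM (13.4) and GUF1 (9.64). Of 30 assembly and RNA factors 6 had a peak, led by C1QBP (18.3), NDUFAB1 (17.3) and MALSU1 (12.5). Of 19 synthetases that charge mitochondrial tRNAs, 2 had a peak, KARS1 (20.8) and GARS1 (6.49), whose genes also encode the cytosolic enzymes. In these 4 lists no gene had a 3A or a 7A peak. Over all protein-coding genes only 0.359% had a 3A peak and 0.269% a 7A peak, so lists this short could well have none.

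**Figure D4:**
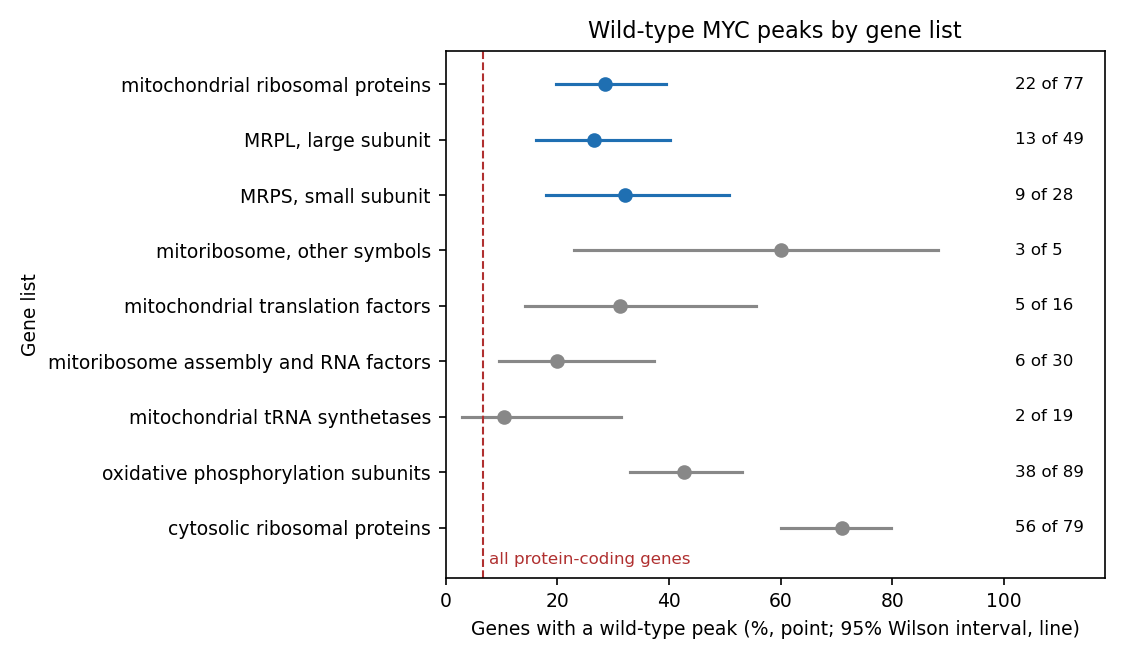
Percentage of genes with a wild-type peak (points) with 95% Wilson intervals over genes (lines), for mitochondrial ribosomal protein genes (blue) and related lists (grey), with counts at the right. The dashed line is the share of all protein-coding genes, 6.78%.

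The mutant lists were too short to show a loss at these genes. The 3A list held 103 peaks and the 7A list 88, against 2149 in the wild-type list. A count of 0 has a 95% Wilson upper limit of 3.60% of 3A peaks and 4.18% of 7A peaks. The measured share of wild-type peaks was 1.26% (95% Wilson interval 0.865 to 1.82). Both limits are above the wild-type share. Of the 1359 protein-coding genes with a wild-type peak, 4.34% also had a 3A peak and 2.06% also had a 7A peak, so few of 22 genes could be met at those shares. The strongest of the 27 peaks ranked 422 by −log10 q (MRPS16) and 188 by fold enrichment (MRPL32) in the wild-type list. Reduced to its 103 or 88 highest peaks by either measure, the wild-type list had no peak in the 77 genes either. Cytosolic ribosomal protein genes with a peak numbered 5 in the 3A list, against 14 in the wild-type list reduced to 103 peaks by −log10 q and 7 when reduced by fold enrichment. They numbered 0 in the 7A list, against 11 and 7 in the wild-type list reduced to 88 peaks in the same ways.

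**Figure D5:**
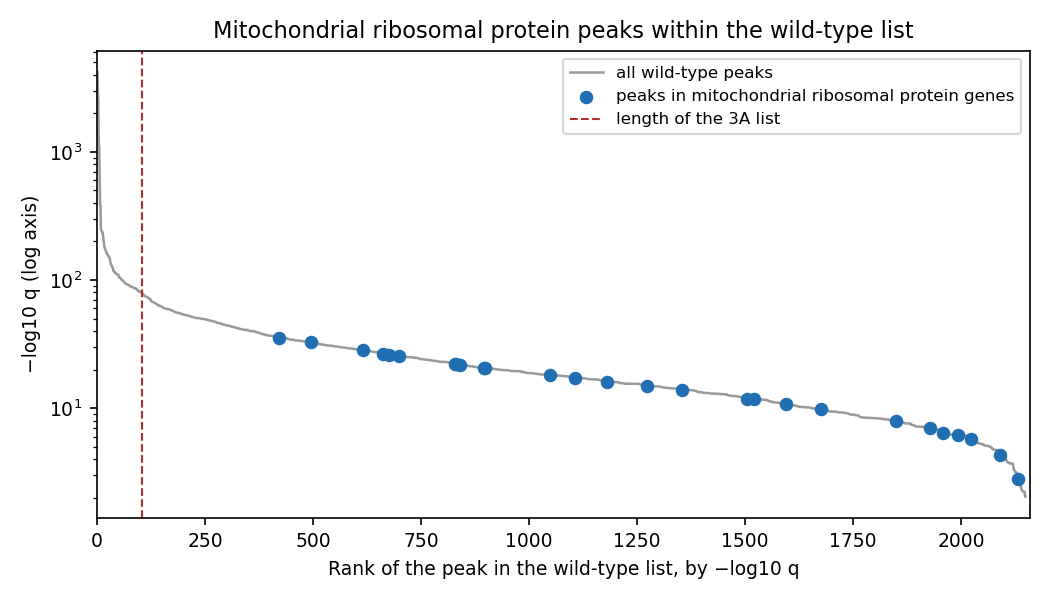
Wild-type peaks by rank (x axis) and −log10 q (y axis, log scale), with the 27 peaks in mitochondrial ribosomal protein genes in blue. The first of them stands at rank 422, right of the dashed line that marks the 103 peaks of the 3A list.

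A mutant peak did lie beside one of these genes, in the divergent neighbour. The 3A peak nearest to any of the 77 genes lay 238 bp outside MRPL18, on chromosome 6 from 159789367 to 159789574, with a fold enrichment of 8.002. It was on the minus strand inside TCP1, a subunit gene of the CCT chaperonin, while MRPL18 is on the plus strand. A wild-type peak covered the same place, from 159789284 to 159789613, with 16.7 in its own list. The next nearest 3A peak was 44413 bp from one of the 77 genes, and the nearest 7A peak 116193 bp. Wild-type peaks also lay in the divergent neighbours of 2 more genes without a peak of their own. NDUFS6, a complex I subunit gene, had a peak 6 bp outside MRPL36 (11.7), and FAU, which encodes a cytosolic ribosomal protein, had peaks 381 and 584 bp outside MRPL49 (8.77 and 19.4).

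Short motifs of transcription factors were counted in the start windows of these genes. Windows of 300 bases were found for 69 of the 77 genes, 21 of them with a peak, and both strands were searched. The E-box CACGTG, the site that MYC binds as DNA with MAX, was in 7 of 69 windows (10.1%), against 8.82% of 15842 protein-coding windows. It was in 1 of 21 genes with a peak and 6 of 48 without. The ETS motif CCGGAAG was in 29 of 69 (42.0%) against 14.2% of all windows, and in 10 of 21 with a peak and 19 of 48 without. The YY1 motif AAGATGGC was in 20 of 69 (29.0%) against 3.86%, and in 5 of 21 and 15 of 48. In the 1141 windows of all protein-coding genes with a wild-type peak, the shares were 12.6% for the E-box, 23.8% for ETS and 6.84% for YY1. These are counts of letters, chosen after the sequences had been seen. Of the 6 further motifs searched, CGGAAG, which is part of the ETS motif, was in 53.6% against 25.5% of all windows. CACGCG was in 14.5% against 14.9%, CCAAT in 29.0% against 36.4% and TATAAA in 2.90% against 9.75%. The palindromic NRF1 motif was in 1.45% against 1.77%, and with any base at its sixth letter in 11.6% against 8.58%.

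Examples from genes with a peak are given on the gene's strand, with the motif or its reverse complement in capitals. The first is the E-box, starting at position -170 from the gene start, counted with no 0, the next 3 are ETS and the last 2 YY1. The MRPS34 window also holds a further ETS match, left in lower case.
MRPL37, chr1:54199985-54200014, plus strand: tgcgcttcacctCACGTGaggattttccag
MRPL58, chr17:75012651-75012680, plus strand: ggaagcgcccgCCGGAAGcagtcgcaagac
MRPL52, chr14:22829871-22829900, plus strand: ggccacgcctaCTTCCGGctaccccggcta
MRPS34, chr16:1773135-1773164, minus strand: tcttccggtgaCTTCCGGccggaccgctga
MRPS30, chr5:44808949-44808978, plus strand: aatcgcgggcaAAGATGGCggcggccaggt
MRPL38, chr17:75904860-75904889, minus strand: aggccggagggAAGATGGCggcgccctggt
The YY1 motif started 14 bases into the MRPS30 transcript and 7 bases into that of MRPL38, while the wild-type peaks of these genes began 69 and 174 bp from the start.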

How the data were processed

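The submitters' processing notes name cutadapt, BWA, MACS2 and hg38. For tool versions, settings, the control and any pooling of replicates, the sources used here give nothing. The deposited lists are in narrowPeak layout and give each peak a fold enrichment (a ratio), a −log10 q, a score derived from the −log10 q and a summit offset. Fold and −log10 q were used only within a list. Coordinates were turned to 1-based positions. Gene spans came from RefSeq GRCh38.p14 and strands from its promoter table, which had 69 of the 77 genes. For the others the strand of the peak was used. The gene start is the end of the span on the 5′ side. Overlaps needed 1 bp. The overlap code was tested on simulated data and recovered 300 of 300 peaks. These were placed on the gene's strand, with summits inside protein-coding genes longer than 5 kb. Shorter genes, genes without an annotated strand and peaks on the opposite strand were not simulated. Every gene with a peak is named. The genes and lists were chosen with earlier results of these data known. No test was run, since peaks and genes of a single list are not replicates. Alternatives were the overlap rule, −log10 q of at least 5, the list's upper part by fold, strand, host gene, symbols and distance. Computations ran in Python 3.11.15 with SciPy 1.17.1, NumPy 2.4.6 and pandas 2.3.3.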

Additional observations from a re-analysis of the deposited data

How the results depend on the processing

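Of 49 alternative values of 9 results, 45 stayed within 1.5 times the count or within the interval, and 10 of the 49 were chosen after seeing the data. Among them, the 0 genes with a 3A or 7A peak stayed 0 in all 20 alternatives. Most of these only remove peaks or genes, under which a 0 cannot change. Those that could add a gene took in 5 proteins of other symbols or widened the span by 1000 bp on the gene's strand. That strand rule left out the 3A peak 238 bp from MRPL18. The genes with a wild-type peak numbered 20 to 25 in 9 of 10 alternatives. Keeping wild-type peaks at or above the list's median fold enrichment left, by construction, fewer peaks, with 14 of 77 genes and 7 of 49 large-subunit genes, and put 93.8% of 16 summits within 500 bp of the start. A limit of 250 bp gave 51.9%. No paired analysis was possible because the lists carry no replicate numbers, so leaving out a library was not possible either. Without expression values, exons or lists of uninduced cells, neither message abundance nor background precipitation can be told apart from binding at these genes.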

Other observations

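An ATG lay within the first 50 transcribed bases in 44 of 69 mitochondrial ribosomal protein genes (63.8%), against 35.5% of 15842 protein-coding genes. It did so in 12 of 21 genes with a wild-type peak and in 32 of 48 without. An ATG in these letters need not be the start codon. The G and C content of the first 50 bases had a median of 66% in the 21 genes with a peak and 64% in the 48 without. It was 64% over the 15842 protein-coding genes with a start window and 68% over the 1141 of them with a wild-type peak.

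The 77 genes lay on 21 chromosomes, and 15 of these chromosomes held the 22 genes with a peak. Chromosome 17 had 4 of 8 and chromosome 1 had 3 of 8, while none of 3 genes on chromosome 12 had a peak.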
